A study of Mus musculus with 6 samples.

Results

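The canonical Wnt pathway was examined through 10 genes in mouse embryonic stem cells with and without an intact copy of Lsd1, now named Kdm1a, whose product demethylates lysine 4 of histone H3. The genes were Ctnnb1, the transcription factor genes Lef1, Tcf7, Tcf7l1 and Tcf7l2, and the targets Axin2, Sp5, Cdx1, Nkd1 and Dkk1. They were found through the gene ID that the platform annotation gives for each probe, among 45281 probes. Of the 10 genes, 9 had at least 1 probe, 23 probes in all, and Tcf7 is not analysed here because no probe was assigned to it. After a filter on detection 7 of the 10 genes were tested, out of 10711 genes tested in all.

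The cells were of the E14 line of strain 129/Ola. In Δ3/Δ3 cells exon 3 of Lsd1 was deleted on both alleles. In the control Lox/Δ3 cells 1 allele already carried the deletion and the other had exon 3 flanked by loxP sites, so both genotypes share a deleted allele and the controls are not wild type. Total RNA was measured on 3 bead arrays per genotype. The samples of a genotype are called biological replicates, with no word on separate clones or cultures, and the p-values therefore reflect only how far these samples differ, which may be technical. The question was which transcripts differ once the intact allele is lost.

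In the canonical pathway a secreted Wnt protein binds a Frizzled receptor with an LRP co-receptor, and the cytoplasmic complex of Axin, APC and GSK3 that marks β-catenin for breakdown is held inactive. β-Catenin, the product of Ctnnb1, then enters the nucleus and binds DNA through the TCF and LEF factors, which otherwise hold target genes silent together with Groucho (TLE) corepressors. In mouse embryonic stem cells Tcf7l1 is known mainly as a repressor of self-renewal genes, and inhibition of GSK3 is part of the culture conditions that keep the cells in the naive state.

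The arrays detected 18506 to 19799 probes each, and Pearson correlations between arrays, taken over genes that are themselves no replicates, ran from 0.977 to 0.990 within a genotype and from 0.966 to 0.985 between genotypes. Kdm1a transcript itself was lower in Δ3/Δ3 cells by a log2 difference of -1.56 ± 0.15 (SE; limma, Benjamini-Hochberg adjusted p = 0.0130), and leaving out Δ3/Δ3 array 1, 2 or 3 moved the limma adjusted p to 0.0755, 0.0944 or 0.0802. Its probe was not placed relative to exon 3. The summed level of 5 embryonic stem cell markers (Pou5f1, Nanog, Sox2, Zfp42 and Klf4) lay between 14.82 and 15.03 in Δ3/Δ3 and between 14.95 and 15.04 in Lox/Δ3 arrays on the log2 scale. Lox/Δ3 array 3 stood apart in markers of extraembryonic endoderm. The summed level of the 11 tested markers of 12 was 14.59 on that array and 12.70 to 13.25 on the other 5, with Foxa2 detected on none. The members are given with and without that array, and Kdm1a had a limma adjusted p of 0.0279 when it was left out.

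Sequences upstream of 3 members are shown because TCF and LEF factors recognise a short DNA motif, and because Sp5 and Axin2 shared a pattern over the arrays while Dkk1 was barely detected. The windows are the 250 bases before the annotated start in RefSeq (GRCm38.p6), written 5′ to 3′ on the gene's strand, with the TCF and LEF motif on either strand in capitals. The motif searched was CTTTG followed by a pair of letters that were each A or T. The Sp5 window is chr2:70474673-70474922 (plus strand), the Axin2 window chr11:108920099-108920348 (plus strand) and the Dkk1 window chr19:30549497-30549746 (minus strand).
Sp5: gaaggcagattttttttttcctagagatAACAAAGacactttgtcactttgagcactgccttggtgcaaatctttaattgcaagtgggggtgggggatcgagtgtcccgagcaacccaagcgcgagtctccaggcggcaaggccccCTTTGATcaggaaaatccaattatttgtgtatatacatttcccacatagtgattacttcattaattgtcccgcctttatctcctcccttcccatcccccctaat
Axin2: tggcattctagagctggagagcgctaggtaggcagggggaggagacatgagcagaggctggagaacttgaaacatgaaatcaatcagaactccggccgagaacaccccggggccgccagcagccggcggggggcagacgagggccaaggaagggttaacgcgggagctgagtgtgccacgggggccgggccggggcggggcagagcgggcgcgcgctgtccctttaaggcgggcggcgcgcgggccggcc
Dkk1: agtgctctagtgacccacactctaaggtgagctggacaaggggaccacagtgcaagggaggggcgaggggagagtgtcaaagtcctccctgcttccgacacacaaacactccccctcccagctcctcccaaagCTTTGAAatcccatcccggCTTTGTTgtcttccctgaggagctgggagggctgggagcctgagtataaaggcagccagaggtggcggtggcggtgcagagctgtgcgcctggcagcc
The Sp5 window held CTTTGAT beginning 104 bases before the start, and CTTTGTT on the opposite strand in the 7 bases that begin 222 bases before it. The Dkk1 window held CTTTGAA at 117 and CTTTGTT at 98 bases, and the Axin2 window held none of these letters. Of the 9 members with at least 1 window, 4 had a match (Sp5, Dkk1, and 1 of the alternative starts of Lef1 and of Tcf7l2), and over all genes with such windows 16.8% had one. Lef1 had 4 windows and Tcf7l2 had 2. Counted by window, 4 of the members' 15 windows had a match, against 14.8% of all 32851 windows. A match describes the letters in the window and not a bound site.

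Detection differed between the members and between probes of 1 member. A probe counted as detected on an array where its detection p was under 0.05. Of the 23 probes, 11 were detected on 3 or more arrays and kept, and 10 were detected nowhere. Ctnnb1 had 3 of 4 probes detected on all arrays, Tcf7l1 both of its 2, Axin2 and Sp5 their single probe, Lef1 1 of 4 and Cdx1 1 of 2. Tcf7l2 had 1 of 6 probes detected on all arrays and another on all 3 Lox/Δ3 arrays but 1 Δ3/Δ3 array. Because the probe sequences were not used here, it was not examined which transcript forms the undetected probes of Lef1 and Tcf7l2 would measure. Older names overlap in this family. The annotation also lists 2 probes as Tcf3 and 3 as Tcf4, names once used for Tcf7l1 and Tcf7l2, but their gene IDs are those of the E-protein genes Tcf3 and Tcf4, and they were left out.

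**Figure D1:**
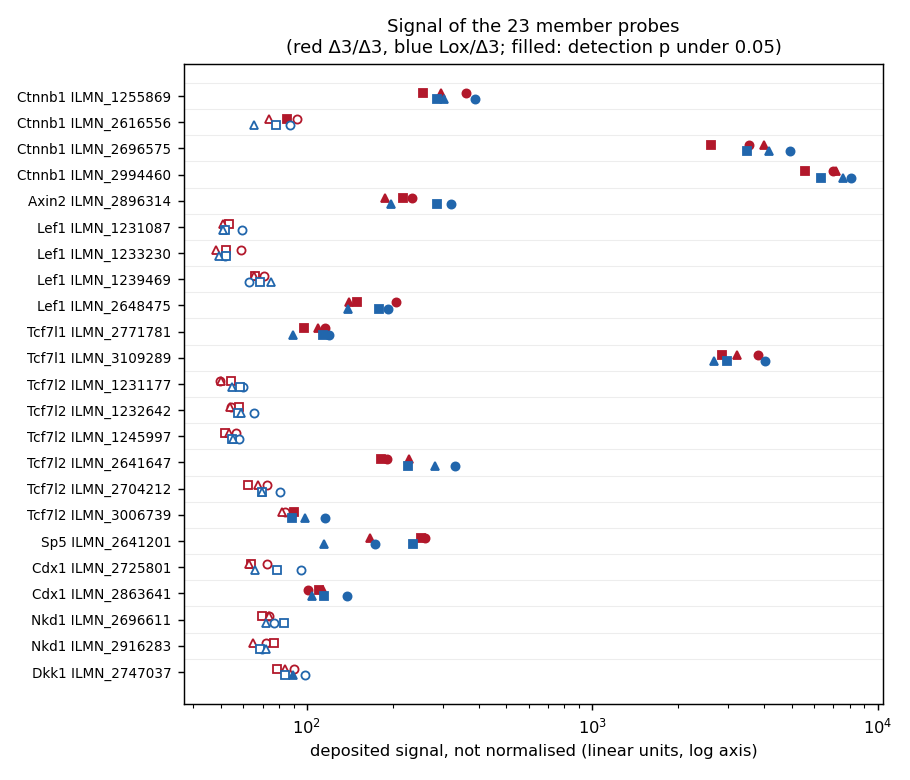
Deposited signal (linear units, log axis, not normalised) of each of the 23 member probes on each array, red for Δ3/Δ3 and blue for Lox/Δ3, with circles, squares and triangles for arrays 1, 2 and 3 and filled symbols where the detection p was under 0.05. Both Nkd1 probes have open symbols on all 6 arrays, and the 11 probes that were kept carry filled symbols on at least 3.

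Nkd1, a feedback inhibitor that acts on Dishevelled, was not well above background on any array. Its 2 probes had signals of 65.0 to 83.2, against array medians of 73.8 to 83.7. Dkk1, a secreted inhibitor that binds LRP co-receptors, was detected on 1 array only. Its signals were 90.3, 78.8 and 84.2 on the Δ3/Δ3 arrays and 98.7, 84.2 and 89.5 on the Lox/Δ3 arrays, and the array that detected it was Lox/Δ3 array 3. No fold is given for either gene.

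None of the 7 tested members was called. The count was 0 of 7 with limma at a Benjamini-Hochberg adjusted p under 0.05, where 1.31% of all genes tested were called, and 1 of 7 at an unadjusted p under 0.05, where 18.2% of all genes were. Of the 7, 4 were lower and 3 higher in Δ3/Δ3 cells, with a median log2 difference of -0.042 against -0.025 over all genes. Measured differences ran from -0.49 for Tcf7l2 to 0.65 for Sp5. All levels below are log2 values after background correction and normalisation, and each difference is Δ3/Δ3 minus Lox/Δ3 on that scale. As these are bulk samples, a lower level in each cell and fewer cells with the transcript cannot be told apart.

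Ctnnb1, which encodes β-catenin, measured 12.71, 12.60 and 12.89 on the Δ3/Δ3 arrays and 12.70, 12.67 and 12.96 on the Lox/Δ3 arrays. The genotypes overlapped, and array 3 was the highest of each. The difference was -0.042 ± 0.14 (SE), with a 95% interval from -0.37 to 0.29 (limma adjusted p = 0.916). Its other kept probes stood at -0.17 ± 0.16 (SE) and -0.011 ± 0.14 (SE). β-Catenin is regulated mainly through protein breakdown, which these arrays do not measure.

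Among the DNA-binding factors Tcf7l2 was lower and Tcf7l1 slightly higher in Δ3/Δ3 cells, neither of them past the adjusted test. Tcf7l2, which can activate or repress targets depending on β-catenin, measured 7.12, 7.25 and 7.51 on the Δ3/Δ3 arrays. On the Lox/Δ3 arrays it measured 7.92, 7.54 and 7.88. All Δ3/Δ3 values lay below all Lox/Δ3 values, as did those of 12.5% of all genes tested, although Δ3/Δ3 array 3 and Lox/Δ3 array 2 were 0.032 apart. The mean was 7.29 ± 0.20 against 7.78 ± 0.21 (SD, n = 3 each).

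The Tcf7l2 difference was -0.49 ± 0.16 (SE), a ratio of 1.40, with a 95% interval from -0.86 to -0.12. It had an unadjusted limma p of 0.0165 and did not pass after adjustment over all genes (adjusted p = 0.168). A second Tcf7l2 probe, detected on 1 Δ3/Δ3 array and on all Lox/Δ3 arrays, stood at -0.35 ± 0.17 (SE; limma adjusted p = 0.364 over the kept probes). That probe passed the filter through the Lox/Δ3 arrays, where it was higher, so its direction is no separate support. The genotypes overlapped at Tcf7l2 in the authors' value table.

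Tcf7l1, the repressor of self-renewal genes, measured 11.79, 11.67 and 11.73 on the Δ3/Δ3 arrays and 11.66, 11.55 and 11.41 on the Lox/Δ3 arrays. All Δ3/Δ3 values were above all Lox/Δ3 values, as for 11.3% of all genes, by 0.010 between the closest pair. That separation was absent after cyclic loess, median scaling or in the authors' values. The difference was 0.19 ± 0.13 (SE), with a 95% interval from -0.095 to 0.48 (limma adjusted p = 0.474). Its other probe stood at 0.085 ± 0.18 (SE).

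Lef1, a factor of the same family that is also a target of the pathway, measured 7.27, 6.86 and 6.54 on the Δ3/Δ3 arrays and 6.98, 7.11 and 6.55 on the Lox/Δ3 arrays. The Δ3/Δ3 range enclosed the Lox/Δ3 range, with array 3 lowest in both genotypes. Its difference was 0.0075 ± 0.22 (SE), with an interval from -0.50 to 0.52 (limma adjusted p = 0.991).

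**Figure D2:**
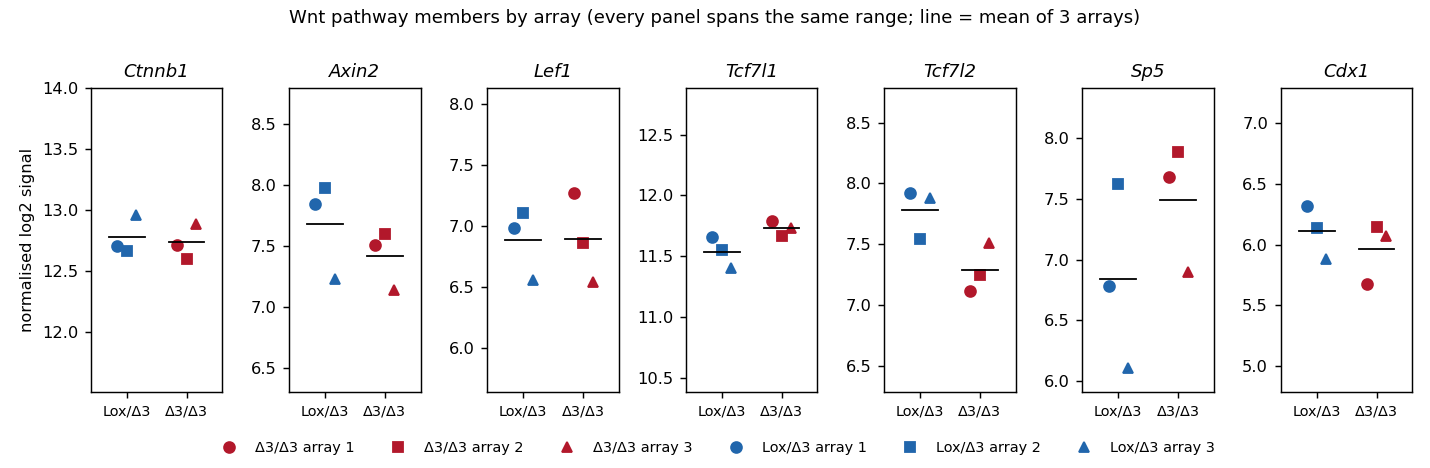
Normalised log2 signal of the 7 tested members on each array, 1 panel per gene with the same span on every vertical axis, blue for Lox/Δ3 and red for Δ3/Δ3, circles, squares and triangles for arrays 1, 2 and 3, and a line at each mean of 3 arrays. Tcf7l2 is separated between the genotypes, Sp5 spreads from 6.11 to 7.89, and the triangles of Axin2, Lef1 and Sp5 are lowest in both genotypes.

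Among the targets Axin2 was measured lower and Sp5 higher in Δ3/Δ3 cells, within the spread between arrays. Axin2, a scaffold of the β-catenin breakdown complex and a widely used readout of the pathway, measured 7.51, 7.60 and 7.14 on the Δ3/Δ3 arrays and 7.85, 7.98 and 7.23 on the Lox/Δ3 arrays. Arrays 1 and 2 of each genotype were above its array 3, and the genotypes overlapped. The difference was -0.27 ± 0.22 (SE), with a 95% interval from -0.78 to 0.24 (limma adjusted p = 0.583). It grew to -0.49 when Lox/Δ3 array 3 was left out (limma adjusted p = 0.171) and shrank to -0.12 or -0.13 when Lox/Δ3 array 2 or Δ3/Δ3 array 3 was.

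Sp5, a zinc finger factor that is a direct target and that in turn represses other targets, had the widest spread of the 7 members, an SD of 0.68 over the 6 arrays. It measured 7.68, 7.89 and 6.90 on the Δ3/Δ3 arrays and 6.78, 7.62 and 6.11 on the Lox/Δ3 arrays. Lox/Δ3 array 2 lay above Δ3/Δ3 array 3 and below the other Δ3/Δ3 arrays, and array 3 was lowest in each genotype. The difference was 0.65 ± 0.39 (SE), a ratio of 1.57, with a 95% interval from -0.25 to 1.55 (limma adjusted p = 0.440). Leaving out Lox/Δ3 array 2 gave 1.04, leaving out Δ3/Δ3 array 3 gave 0.94 and leaving out Lox/Δ3 array 3 gave 0.29, with limma adjusted p-values of 0.216, 0.335 and 0.677. Sp5 and Axin2, both targets, thus had differences of opposite sign, and neither passed the test.

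Cdx1, a caudal-type homeobox factor of the posterior embryo and the intestine, measured 5.68, 6.15 and 6.07 on the Δ3/Δ3 arrays and 6.31, 6.14 and 5.88 on the Lox/Δ3 arrays, and the genotypes overlapped. The difference was -0.15 ± 0.18 (SE; limma adjusted p = 0.724), with an interval from -0.55 to 0.26. Its second probe was detected on no array. With Lox/Δ3 array 3 left out, the differences of the remaining members were -0.26 for Cdx1, -0.44 for Tcf7l2, 0.13 for Tcf7l1, -0.16 for Lef1 and 0.050 for Ctnnb1, with limma adjusted p-values of 0.232 to 0.885.

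**Figure D3:**
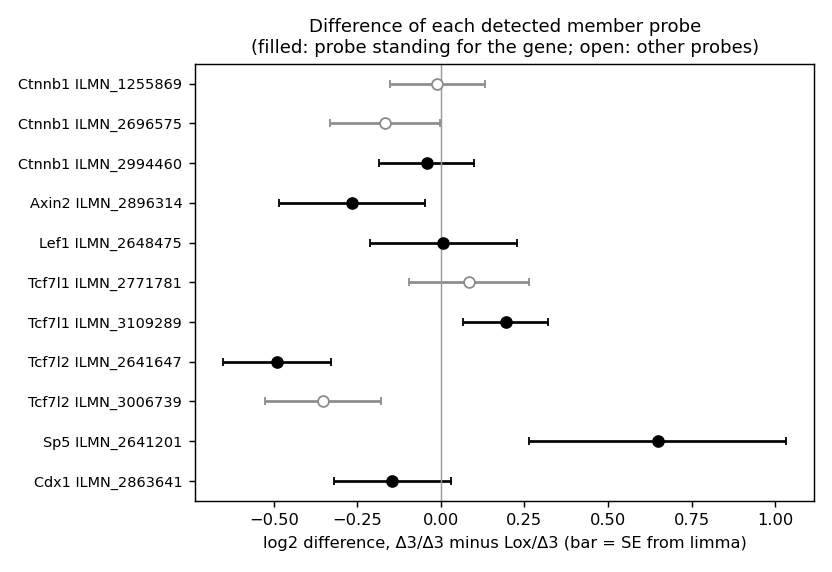
Log2 difference (Δ3/Δ3 minus Lox/Δ3) with the limma standard error for the 11 kept probes of the 7 tested members, filled for the probe that stands for the gene and open for its other probes. Kept probes of 1 gene lie on the same side of 0 for Ctnnb1, Tcf7l1 and Tcf7l2, and the longest bar is that of Sp5. The filter has a part in this. The open Tcf7l2 probe was kept through the Lox/Δ3 arrays, and a Ctnnb1 probe that was not kept stood at 0.28.

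Axin2, Lef1 and Sp5 were lowest on array 3 of both genotypes, a pattern that was picked out after the values were seen. It was shared by 1843 of the 10711 genes tested, or 17.2%, and array 3 was highest in both genotypes for 19.1%, Ctnnb1 among them. The target Cdx1 did not share it. Of 57 other pathway genes tested 8 (14.0%) had it, among them the targets Myc and Ccnd1 but not the targets Tnfrsf19, Jun and Cd44, and 13 (22.8%) were highest on both arrays 3. The tested extraembryonic endoderm markers were highest on Lox/Δ3 array 3, except Gata4, which stood at 5.73 there and 5.75 on Lox/Δ3 array 2. Their summed levels on Δ3/Δ3 arrays 1, 2 and 3 were 12.80, 13.14 and 13.25. The part of such cells in the members' values was not tested. The genes whose mean-centred profile over the 6 arrays was nearest to that of Sp5 were H4c2, Zfp608, Etv2, H3c3 and Aim2, with root mean square differences of 0.21 to 0.27 on the log2 scale.

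Upstream of the members, most Wnt ligand genes were below detection in these cells. Of 25 genes for ligands, their secretion and R-spondins 7 were tested, and 16 had no probe detected on any array. Of the 7, 4 were higher and 3 lower, with a median of 0.062 (3 and 4 with median scaling or in the authors' value table). None passed the adjusted test in limma and 1 had an unadjusted p under 0.05, a cut that 18.2% of all genes tested passed. That gene was Porcn, whose product attaches the lipid that Wnt proteins need for secretion. It measured 9.68, 9.78 and 10.29 on the Δ3/Δ3 arrays and 11.19, 10.40 and 10.70 on the Lox/Δ3 arrays.

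The Δ3/Δ3 values of Porcn all lay below the Lox/Δ3 values, as did those of 12.5% of all genes tested. The difference was -0.85 ± 0.24 (SE; limma adjusted p = 0.120), the largest in size among the 57 other pathway genes tested, and its second probe stood at -0.91 ± 0.26 (SE; limma adjusted p = 0.140). The ligand genes Wnt3a, detected on 2 arrays of each genotype, and Wnt4 were at -0.47 and -0.36 (limma adjusted p = 0.294 and 0.452). The ligand genes on the other side, named here after their values were seen, were Wnt5a at 0.43, Wnt6 at 0.25 and Wnt7b at 0.19 (limma adjusted p = 0.460, 0.598 and 0.826). Wnt5a was detected on all 3 Δ3/Δ3 arrays but on only 1 Lox/Δ3 array, and so passed the filter through the Δ3/Δ3 arrays.

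Of 19 genes listed with the receptors 11 were tested, 5 higher and 6 lower (4 and 7 with median scaling or in the authors' value table). The median was -0.051 with 0 calls by limma, and 2 had an unadjusted p under 0.05, as had 18.2% of all genes. Fzd4, named after its values were seen, was among the 5 at 0.19. It was detected on 3 Δ3/Δ3 and 0 Lox/Δ3 arrays, and so passed the filter through the Δ3/Δ3 arrays. Fzd3, a Frizzled receptor, was at 0.54 ± 0.18 (SE; limma adjusted p = 0.182), but its other 2 kept probes went to 0.42 and -0.19. Fzd7, a Frizzled receptor expressed in pluripotent cells, was at -0.35 ± 0.14 (SE; limma adjusted p = 0.223). It did not overlap between the genotypes, like 12.5% of all genes on the lower side. The co-receptor gene Lrp5 was at -0.25 (limma adjusted p = 0.348). Lgr5, Rnf43 and Znrf3, which were listed with the receptors and are also pathway targets, were detected on no array.

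Of 14 genes for secreted or membrane antagonists 8 were tested. Of these, 7 were higher in Δ3/Δ3 cells (6 with median scaling or in the authors' value table), beside 4966 of all 10711 genes tested. The median was 0.20 with 0 calls by limma, and 1 had an unadjusted p under 0.05, as had 18.2% of all genes. Without Lox/Δ3 array 3 Notum turned to -0.25 and Sfrp2 to -0.042, and the other tested antagonists kept their direction. Notum and Sfrp2 are named after their values were seen. Wif1, a secreted protein that binds Wnts, measured 6.64, 6.67 and 6.90 on the Δ3/Δ3 arrays and 6.01, 6.54 and 6.31 on the Lox/Δ3 arrays. The ranges did not overlap, as for 11.3% of all genes on the higher side, and the difference was 0.45 ± 0.17 (SE; limma adjusted p = 0.203). Dkk3, a relative of Dkk1, was at 0.51 on 1 probe and 0.47 on another, and Apcdd1, a membrane inhibitor, at 0.27 and 0.40. Their limma adjusted p-values on the probe standing for the gene were 0.339 and 0.447.

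Of 14 cytoplasmic components 11 were tested, 7 higher and 4 lower (3 and 8 with median scaling, 4 and 7 in the authors' value table). The median was 0.066 with 0 calls by limma, and 2 had an unadjusted p under 0.05, as had 18.2% of all genes. Btrc, the F-box protein that targets β-catenin for breakdown, was at 0.61 ± 0.22 (SE; limma adjusted p = 0.194) with a second probe at 0.44. Dvl1, a Dishevelled protein that relays the receptor signal, was at -0.36 ± 0.13 (SE; limma adjusted p = 0.194) with a second probe at -0.12. Amer1, a binding partner of APC, was at 0.21 (limma adjusted p = 0.506).

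Of the pathway genes outside the members, Pygo2 had the smallest adjusted p. Of 12 genes for nuclear partners of the TCF factors 11 were tested, 8 lower and 3 higher, with a median of -0.18 and 0 calls by limma, and 4 had an unadjusted p under 0.05, a cut that 18.2% of all genes tested passed. Pygo2, a PHD finger protein that joins β-catenin through BCL9 and binds methylated lysine 4 of histone H3, measured 9.93, 10.05 and 9.99 on the Δ3/Δ3 arrays. On the Lox/Δ3 arrays it measured 10.81, 10.57 and 10.41. The ranges did not overlap, as for 12.5% of all genes on the lower side, and the difference was -0.61 ± 0.14 (SE; limma adjusted p = 0.0786).

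None of the 4 tested Groucho-related genes passed the adjusted test. Tle3, a corepressor of the TCF factors, was at -0.46 ± 0.17 (SE; limma adjusted p = 0.197), and its other 3 kept probes were at -0.31, -0.50 and -0.58; without Lox/Δ3 array 3 its difference was -0.29. Tle5, a short relative that lacks much of the corepressor, was at -0.37 ± 0.12 (SE; limma adjusted p = 0.167) with a second probe at -0.47. Tle1, named like Tle4 after its values were seen, was at 0.33 ± 0.12 (SE; limma adjusted p = 0.199), with other probes at 0.39 and 0.24. Tle4 was at -0.16 with other probes at 0.087 and 0.076 and overlapped between the genotypes.

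Among 10 other targets 5 were tested, 3 higher and 2 lower (2 and 3 with median scaling or in the authors' value table). The median was 0.0047 with 0 calls by limma, and 1 had an unadjusted p under 0.05, as had 18.2% of all genes. Tnfrsf19, a receptor gene of the TNF family, measured 7.81, 7.96 and 8.22 on the Δ3/Δ3 arrays and 7.39, 7.71 and 7.51 on the Lox/Δ3 arrays. It did not overlap, like 11.3% of all genes on the higher side, and differed by 0.46 ± 0.15 (SE; limma adjusted p = 0.174). Myc, a growth regulator, was at -0.43 ± 0.40 (SE; limma adjusted p = 0.626). It was detected on 3 Δ3/Δ3 but only 2 Lox/Δ3 arrays, and its lowest value was 5.39 on Lox/Δ3 array 3. Leaving out that array moved Myc to -0.92 (limma adjusted p = 0.0735). The adhesion receptor gene Cd44 was at 0.095 (limma adjusted p = 0.883). The homeobox genes Cdx2 and Cdx4 were not tested. The listed target T (Brachyury) was matched to no probe under that name and is not analysed here. Other names of that gene were not searched, so the arrays may still carry a probe for it.

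The 4 genes that Tcf7l1 is known to repress in mouse embryonic stem cells were all detected on every array. Esrrb, an orphan nuclear receptor of the naive state, was at -0.19 ± 0.12 (SE). Klf2 was at 0.23 ± 0.21 (SE), Tfcp2l1 at -0.11 ± 0.14 (SE) and Nanog at 0.059 ± 0.16 (SE), with limma adjusted p-values of 0.490 to 0.887 over the 4. Each overlapped between the genotypes, and 2 were higher and 2 lower. Tcf7l1 itself was at 0.19 ± 0.13 (SE; limma adjusted p = 0.474), and a link between it and these genes was not tested.

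**Figure D4:**
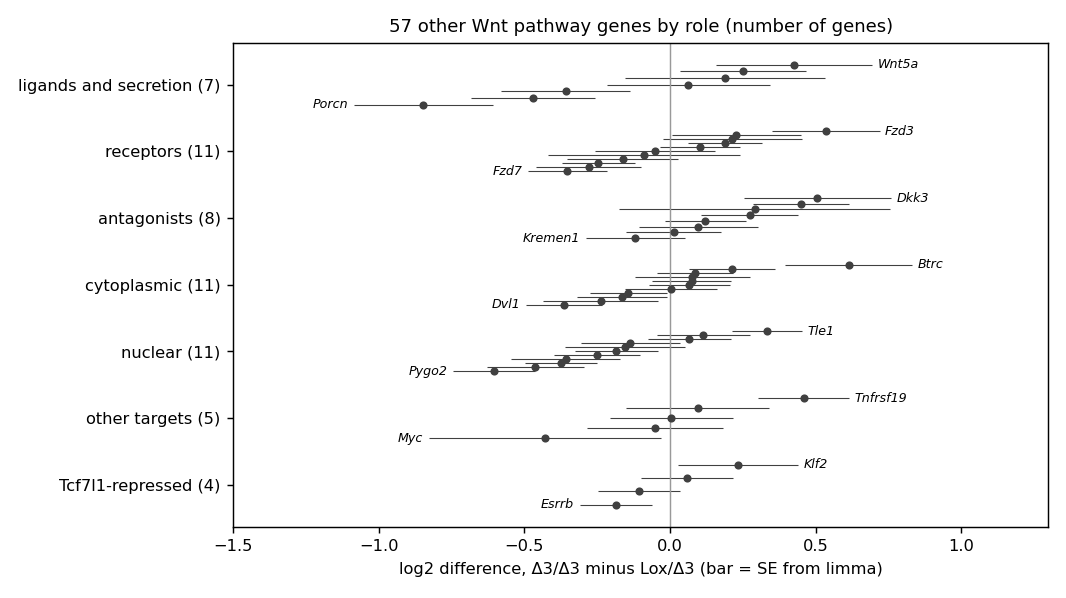
Log2 difference (Δ3/Δ3 minus Lox/Δ3) with the limma standard error for the 57 other tested pathway genes, 1 point per gene, grouped by role with the number of tested genes in brackets and the lowest and highest gene of each role named. The points lie on both sides of 0 in every role, from -0.85 for Porcn to 0.61 for Btrc.

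Over the 98 genes of the wider list, 57 were tested and 35 had no probe detected on any array. Limma with Benjamini-Hochberg adjustment called 0 of the 57, where 1.31% of all genes were called, and 0 without Lox/Δ3 array 3. An unadjusted p under 0.05 was found for 11 (5 higher and 6 lower), or 19.3%, beside 18.2% of all genes. Without overlap between the genotypes were 4 genes (7.02%) on the higher and 9 (15.8%) on the lower side, beside 11.3% and 12.5% of all genes. The median difference was 0.014, with 31 of the 57 higher and 26 lower, beside 4966 higher and 5745 lower among all genes tested. That majority turned with the scaling, to 23 higher and 34 lower with median scaling and 24 and 33 in the authors' value table. It also turned when Lox/Δ3 array 3 was left out, to 25 higher and 32 lower. Some markers of other cells had larger measured differences than any tested member. The fibroblast markers Thy1 and Mmp2 were at 1.62 and 0.97, the streak marker Evx1 was at 0.96 and the fibroblast marker Col1a1 was at -0.67. The extraembryonic endoderm markers Sox7, Lama1 and Col4a2 were at -1.09, -0.71 and -0.65, each with its highest value on Lox/Δ3 array 3. None of these markers passed the adjusted test (limma adjusted p from 0.0523 to 0.596). The 5 tested fibroblast markers of 9 had summed levels of 12.53 to 13.00 in Δ3/Δ3 and 12.01 to 12.14 in Lox/Δ3 arrays, while the defining genes Col1a2, Col3a1, Postn and Lum were detected on none. The 3 tested primitive streak markers of 8 had summed levels of 7.89 to 8.12 and 7.13 to 7.63, while Mixl1, Mesp1 and Lhx1 were detected on none. Gsc and Evx1 were each detected on all 3 Δ3/Δ3 arrays but on only 1 Lox/Δ3 array. They passed the filter through the Δ3/Δ3 arrays, so the summed levels depend on that filter. No probe was matched to the streak marker T under that name, and other names of it were not searched. The part of these cell types in the values of the Wnt genes was not tested.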

How the data were processed

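Per the file headers, the authors deposited a non-normalized signal intensity and a detection p-value for each probe and array, and a value table of intensity that holds the same signals times 1 constant per array. Scanner software and detection settings: not given in the sources used here. RNA was labelled as biotinylated cRNA, per the labels' protocols. Probes were named through the platform annotation and its gene IDs, updated from RefSeq (GRCm38.p6), which also supplied the upstream sequences; matching on gene IDs kept apart genes that share an older name.

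The background was removed with nec in limma from the detection p-values (offset 16), followed by quantile normalization and log2. Probes detected (p under 0.05) on at least 3 of 6 arrays were kept, 19652 in all, and each gene was represented by its brightest kept probe on average. The genotypes were compared with limma (lmFit, eBayes) on 3 against 3 arrays, two-sided, with Benjamini-Hochberg adjustment over 10711 genes; intervals are limma's 95% intervals. The script was tested on simulated data. Alternatives were other background corrections, scalings, filters and probe choices, the authors' value table, array weights, a replicate block and leaving out each array. R 4.3.3, limma 3.58.1, Python 3.11.15 and matplotlib 3.10.9 were used.

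The offset of 16 pulls differences of weak probes toward 0. The members and lists were chosen with earlier results of these data known. Named were all members, Kdm1a, in each role of the wider list the 3 genes with the smallest p and any gene called, all genes repressed by Tcf7l1, and the 5 genes nearest in profile to the most variable member. With 3 arrays per genotype precision is limited by their number.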

Additional observations from a re-analysis of the deposited data

How the results depend on the processing

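Each of the 7 tested members was recomputed under 17 alternatives (16 for Cdx1, which the stricter filter removed), and no member was called under any of them. Tcf7l2 (-0.61 to -0.31), Axin2 (-0.50 to -0.12), Cdx1 (-0.26 to -0.0010), Tcf7l1 (0.061 to 0.25) and Sp5 (0.066 to 1.04) kept their direction throughout. Lef1 turned to -0.19 with array weights, to -0.0057 with the authors' value table and to -0.022 with median scaling, and Ctnnb1 turned to 0.048 with array weights. Leaving out single arrays gave -0.18 to 0.18 for Lef1, -0.12 to 0.050 for Ctnnb1, -0.49 to -0.12 for Axin2 and 0.29 to 1.04 for Sp5. Of the wider list, 1 gene was called with array weights (Pygo2, adjusted p = 0.0340) and 1 with the replicate number as a block (Btrc, adjusted p = 0.0457). Over all genes 140 were called, 511 with array weights, 371 with the replicate block, 261 with median scaling, 226 with every kept probe tested on its own (19652 probes), 60 with the stricter filter and 24 with no filter, and 0 to 275 without single arrays, with 0 whichever Δ3/Δ3 array was left out. The cause was not tested. Median scaling moved the median of all genes to -0.10, and members' differences were shifted with it. Same-numbered arrays of the 2 genotypes had deviations that correlated at 0.36, 0.067 and 0.40, so the numbers were not taken to pair the samples, and Δ3/Δ3 array 2 correlated better with Lox/Δ3 array 3 (0.13) than with its own number. With the replicate block Sp5 had an adjusted p of 0.0816 and Tcf7l2 of 0.114. Signals near background limit Nkd1, Dkk1 and the other probes of Lef1 and Tcf7l2.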
